A study of Homo sapiens with 6 samples.

Results

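A set of 7 genes, most of them best known outside the blood, was followed in a leukaemia cell line treated with a kinase inhibitor. They were the netrin gene NTN1, the uroplakin gene UPK3A, the potassium channel subunit gene KCNE1L, FAM43A, the actin-binding gene SYNPO2, the Wnt adaptor gene DACT3 and the resistin gene RETN. They are 7 of 55765 genes in the deposited count table and 7 of the 13053 that passed the low-count filter. The cells were OCI-AML2, a human line established from acute myeloid leukaemia and grown, per the labels, from single-cell clones. The treated group received 100 nM MRT199665 for 48 h and the control group vehicle alone. The labels call MRT199665 an inhibitor of MARK kinases, and its known targets include the SIK kinases too. Each group held 3 libraries of 3′ messenger RNA sequencing, so the data cover 1 cell line, 1 dose and 1 time. Nothing in the labels shows that replicates were independent cultures, so the p-values below reflect only variation among these libraries, and that variation may be technical.

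The members were chosen from an earlier analysis of this same contrast. NTN1 and UPK3A were taken from the greatest increases, SYNPO2, DACT3 and RETN from the greatest decreases, and KCNE1L and FAM43A from the abundant genes with the lowest p. Their differences between the groups are therefore given as a description, with no test. All 7 were called in the fit over all genes with edgeR's quasi-likelihood test, where 1.25% of tested genes had a Benjamini-Hochberg adjusted p under 0.05. In all 7 the libraries of the groups did not overlap, as in 22.2% of tested genes. Both counts follow from the choice. The working name of the set, strongly changed genes outside myeloid programmes, holds only in part: KCNE1L and FAM43A changed by less than 2-fold, and RETN is in humans known chiefly from monocytes, macrophages and other cells of the bone marrow.

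Netrins are secreted guidance cues that attract or repel growing axons through the receptors DCC, neogenin and the UNC5 proteins, and they also act on adhesion and survival of other cells. Uroplakins form the plaques that seal the bladder surface. KCNE proteins are small single-span subunits that tune voltage-gated potassium channels, synaptopodins bundle actin with alpha-actinin, DACT proteins bind Dishevelled in the Wnt pathway, and resistin is a secreted cysteine-rich peptide of inflammation. FAM43A is a protein of little known function.

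Promoter windows from RefSeq (build GRCh38.p14, 250 bases before to 50 after each start) were matched for 5 of the 7 genes, in 8 windows. SYNPO2 has 3 windows, DACT3 has 2, and KCNE1L (listed as KCNE5), FAM43A and RETN have 1 each. NTN1 and UPK3A had no entry. The last 120 bases before the start are shown for the abundant pair KCNE1L and FAM43A, which had nearly the same profile over the libraries, and for DACT3 (its first window) and RETN, which were lower with the inhibitor. Capitals mark every match to a searched motif on either strand.
KCNE1L (chrX:109625173-109625292, strand -): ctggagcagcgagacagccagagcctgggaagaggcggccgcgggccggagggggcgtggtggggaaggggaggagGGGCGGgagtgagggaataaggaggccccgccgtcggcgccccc
FAM43A (chr3:194685763-194685882, strand +): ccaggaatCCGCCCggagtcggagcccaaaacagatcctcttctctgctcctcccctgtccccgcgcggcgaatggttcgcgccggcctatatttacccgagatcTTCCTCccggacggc
DACT3 (chr19:46661183-46661302, strand -): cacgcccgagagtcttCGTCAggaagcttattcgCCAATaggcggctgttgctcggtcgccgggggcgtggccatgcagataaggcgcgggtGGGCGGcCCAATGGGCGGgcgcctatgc
RETN (chr19:7668929-7669048, strand +): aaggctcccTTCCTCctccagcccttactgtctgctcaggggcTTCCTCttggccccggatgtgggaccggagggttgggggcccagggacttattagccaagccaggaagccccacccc

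These windows differ in base composition. In the 250 bases before the start, GC content was 74.0% for KCNE1L, 58.0% for FAM43A, 68.4% for the first window of DACT3 and 61.2% for RETN, and the median of 35114 promoters was 58%. The ratio of observed to expected CpG is high in CpG islands. It was 1.06 for the first window of DACT3, 0.92 for FAM43A, 0.56 for KCNE1L and 0.13 for RETN. The median was 0.558 and the lower quartile 0.22. RETN and the second window of DACT3 (0.21) were thus CpG-poor and the first window of DACT3 CpG-rich. Both genes were lower with the inhibitor, and which start of DACT3 was used was not tested.

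A total of 10 motifs were searched on both strands: the TATA box TATAAA, the CCAAT box CCAAT, the GC box GGGCGG, the cAMP response element half-site TGACG, the AP-1 site TGANTCA, the C/EBP site TTNNGCAA, the C/EBP-ATF response element TGATGNAA, the PU.1 core GAGGAA, the E-box CACGTG and the MEF2 site. A TATA box can lie inside a MEF2 site, and the AP-1 site and E-box read the same on both strands. The PU.1 core was found in 5 of the 8 windows, from 4 of the 5 genes, and in 27.9% of all promoters of the same length. RETN held 3 matches to it, all on the opposite strand, and FAM43A 1. The GC box was found in 5 of 8 windows and in 45% of all promoters, with 6 matches in the first window of DACT3 and 3 in KCNE1L. The CCAAT box was found in 3 of 8 windows (34.6% of all), with 3 matches in FAM43A. The half-site TGACG was found in 3 of 8 windows (24.6%) and the E-box in 1 of 8 (7.26%). None of the windows held a TATA box (11.5% of all promoters), an AP-1 site (7.71%), a C/EBP site (10.5%), a C/EBP-ATF response element (3.62%) or a MEF2 site (2.99%). A match is a stretch of letters and not a bound site.

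The higher genes include a ligand, a membrane protein, a channel subunit and an uncharacterised protein. NTN1, the netrin ligand, had 10, 6 and 1 counts in vehicle replicates 1, 2 and 3 and 68, 30 and 73 counts in MRT199665 replicates 1, 2 and 3. On CPM (counts scaled to a common library total by TMM) these were 0.839, 0.515 and 0.102 with vehicle and 5.13, 5.07 and 5.17 with MRT199665. The 3 treated libraries were almost equal, and all stood above the highest vehicle library by at least 6.05-fold. Vehicle replicate 3 lay under the limit of 3 counts that a count of 0 allows (0.213 to 0.507 CPM, counting error only). The fitted log2 fold change was 3.32 ± 0.42 (SE), or 9.99-fold higher, which ranked 2 of 13053 from the top. The ratio of summed counts, 171 against 17, was 10.1 with an exact 95% counting interval of 6.13 to 17.7. That interval holds counting error only, leaves out variation between libraries and is not a test. The size of the difference rests on the few vehicle counts: without vehicle replicate 1 the fitted value was 15.3-fold and without vehicle replicate 3 it was 7.46-fold.

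UPK3A, a plaque protein of the urothelium, stood at 3.44, 2.23 and 2.14 CPM in vehicle replicates 1, 2 and 3. With MRT199665 it stood at 9.51, 17.1 and 11.9 CPM in replicates 1, 2 and 3. MRT199665 replicate 2, the library with the fewest counts in all, was the highest, and the lowest treated library exceeded the highest vehicle library 2.77-fold. The means were 12.8 ± 3.86 against 2.60 ± 0.726 CPM (SD, n = 3 per group), and the log2 fold change was 2.26 ± 0.28 (SE). Summed counts of 395 against 88 gave a ratio of 4.51 with an exact 95% counting interval of 3.57 to 5.74. That interval too leaves out variation between libraries and is not a test.

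KCNE1L, a regulatory subunit of potassium channels, was far more abundant and varied little. It had 268, 296 and 277 CPM in vehicle replicates 1, 2 and 3 and 492, 490 and 566 CPM in MRT199665 replicates 1, 2 and 3. MRT199665 replicate 3 was the highest, and the other treated libraries were nearly equal. Its means were 516 ± 43.3 against 280 ± 14.4 CPM (SD, n = 3 per group), with a log2 fold change of 0.88 ± 0.12 (SE). It ranked 348 of 13053 from the top by log2 fold change.

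FAM43A had 178, 200 and 191 CPM in vehicle replicates 1, 2 and 3. It had 361, 349 and 374 CPM in MRT199665 replicates 1, 2 and 3. Within each group the libraries lay close together, with a coefficient of variation of 5.77% with vehicle and 3.44% with MRT199665. The means were 361 ± 12.4 against 190 ± 10.9 CPM (SD, n = 3 per group), and the log2 fold change was 0.93 ± 0.11 (SE), rank 305 from the top.

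The lower genes were an actin-binding protein, a Wnt adaptor and a secreted peptide. SYNPO2, which binds actin and alpha-actinin and is best known from muscle, had 18.5, 21.5 and 22.4 CPM in vehicle replicates 1, 2 and 3 and 6.42, 3.89 and 4.68 CPM in MRT199665 replicates 1, 2 and 3. The vehicle libraries were close to each other, with a coefficient of variation of 9.90%, and the lowest of them was 2.88-fold above the highest treated library. The means were 4.99 ± 1.30 against 20.8 ± 2.06 CPM (SD, n = 3 per group). The log2 fold change was -2.02 ± 0.20 (SE), 4.06-fold lower and rank 14 from the bottom.

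DACT3, an adaptor that binds Dishevelled and restrains Wnt signalling, had 17.7, 36.9 and 22.6 CPM in vehicle replicates 1, 2 and 3. It had 9.89, 5.75 and 5.46 CPM in MRT199665 replicates 1, 2 and 3. This was the most uneven of the lower genes, with vehicle replicate 2 well above the other vehicle libraries. The nearest libraries of the groups differed by 1.79-fold. The means were 7.03 ± 2.48 against 25.7 ± 9.97 CPM (SD, n = 3 per group), with a log2 fold change of -1.85 ± 0.32 (SE), rank 17 from the bottom.

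RETN, the resistin gene, had 95.05, 173 and 162 CPM in vehicle replicates 1, 2 and 3 and 33.5, 29.6 and 37.7 CPM in MRT199665 replicates 1, 2 and 3. Vehicle replicate 1 was lower than the other vehicle libraries but 2.52-fold above the highest treated one. The treated libraries kept between 20.6% and 26.3% of the vehicle mean. The means were 33.6 ± 4.06 against 143 ± 42.3 CPM (SD, n = 3 per group), and the log2 fold change was -2.09 ± 0.23 (SE), 4.25-fold lower and rank 12 from the bottom.

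**Figure D1:**
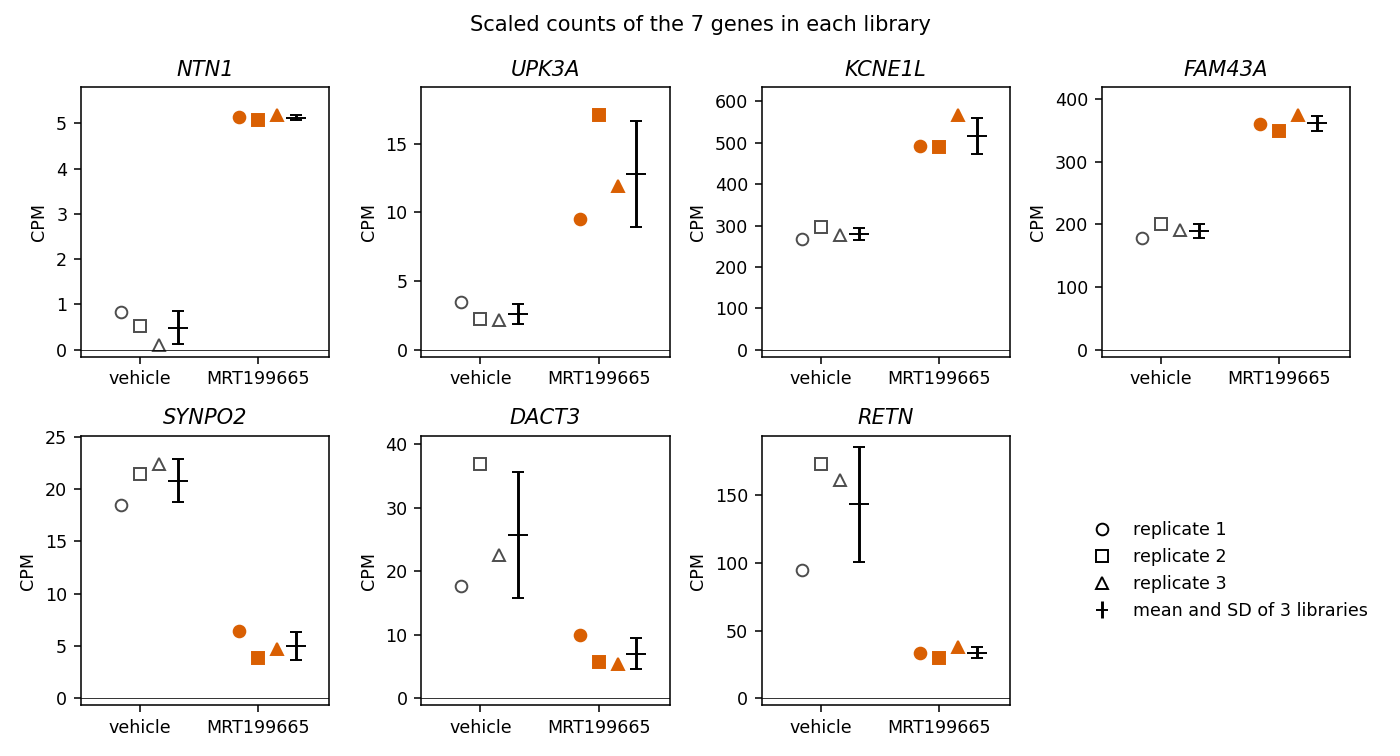
CPM (counts on TMM-scaled library totals, linear axes from 0) of the 7 genes in each of 3 vehicle and 3 MRT199665 libraries, with the group mean and SD beside them. NTN1, UPK3A, KCNE1L and FAM43A are higher and SYNPO2, DACT3 and RETN lower in every treated library than in any vehicle library.

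**Figure D2:**
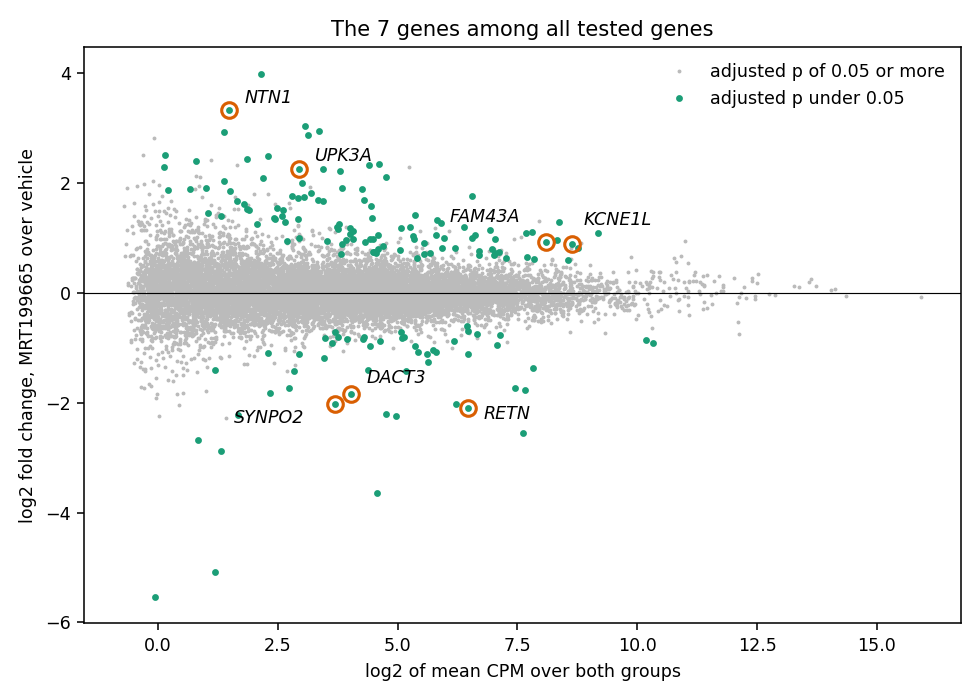
Log2 fold change (MRT199665 over vehicle) against the log2 of mean CPM for 13053 tested genes, with the 7 genes ringed and genes at an adjusted p under 0.05 in green. NTN1 and UPK3A lie among low-abundance genes with large differences, and KCNE1L and FAM43A at high abundance with differences under 2-fold.

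The members differed in how much they varied within a group. The within-group SD of log2 CPM was 0.07 for FAM43A and 0.10 for KCNE1L, at the 3.07th and 9.55th percentile of all tested genes. It was 0.27 for SYNPO2, 0.36 for RETN, 0.39 for UPK3A, 0.50 for DACT3 and 0.67 for NTN1, the last at the 95.5th percentile. The steadiest members were those with the most counts.

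Profiles over the 6 libraries were compared by the root mean square difference of log2 CPM, centred per gene. The candidates were 8589 other genes with a mean of at least 5 CPM in 1 group or both. Genes with a clone, LOC, LINC, MIR, SNOR or open reading frame symbol were left out. The comparison is a description, since a gene chosen for its difference between the groups will resemble other genes with such a difference. KCNE1L and FAM43A differed from each other by 0.05, and each was among the 3 genes most like the other. The other genes most like KCNE1L were IL4R, the interleukin 4 receptor, at 0.05 and CIITA, the class II transactivator, at 0.06. For FAM43A they were SGK223, a pseudokinase gene, at 0.05 and TYROBP, an adaptor for activating myeloid receptors, at 0.06.

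The genes most like NTN1 were LILRB2, an inhibitory leukocyte receptor (0.44), AMICA1, a leukocyte adhesion molecule (0.60), and CD86, a co-stimulatory ligand (0.67). Those most like UPK3A were the integrin gene ITGB7 (0.20), DTX4 (0.24), whose protein belongs to the Deltex family of ubiquitin ligases, and the napsin pseudogene NAPSB (0.25). All 3 were, like UPK3A, highest in MRT199665 replicate 2.

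Among the lower genes, the argininosuccinate synthase gene ASS1 was among the 3 genes most like RETN (0.22), SYNPO2 (0.22) and DACT3 (0.28). BLACE (0.22) and ALDH1L2, a mitochondrial folate enzyme (0.25), were the others for SYNPO2. The metallothionein gene MT1X was the closest to DACT3 (0.24) and, like it, was highest in vehicle replicate 2. SYNPO2 was itself among the genes most like DACT3 (0.31) and RETN (0.27), and BLACE was the other for RETN (0.32).

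**Figure D3:**
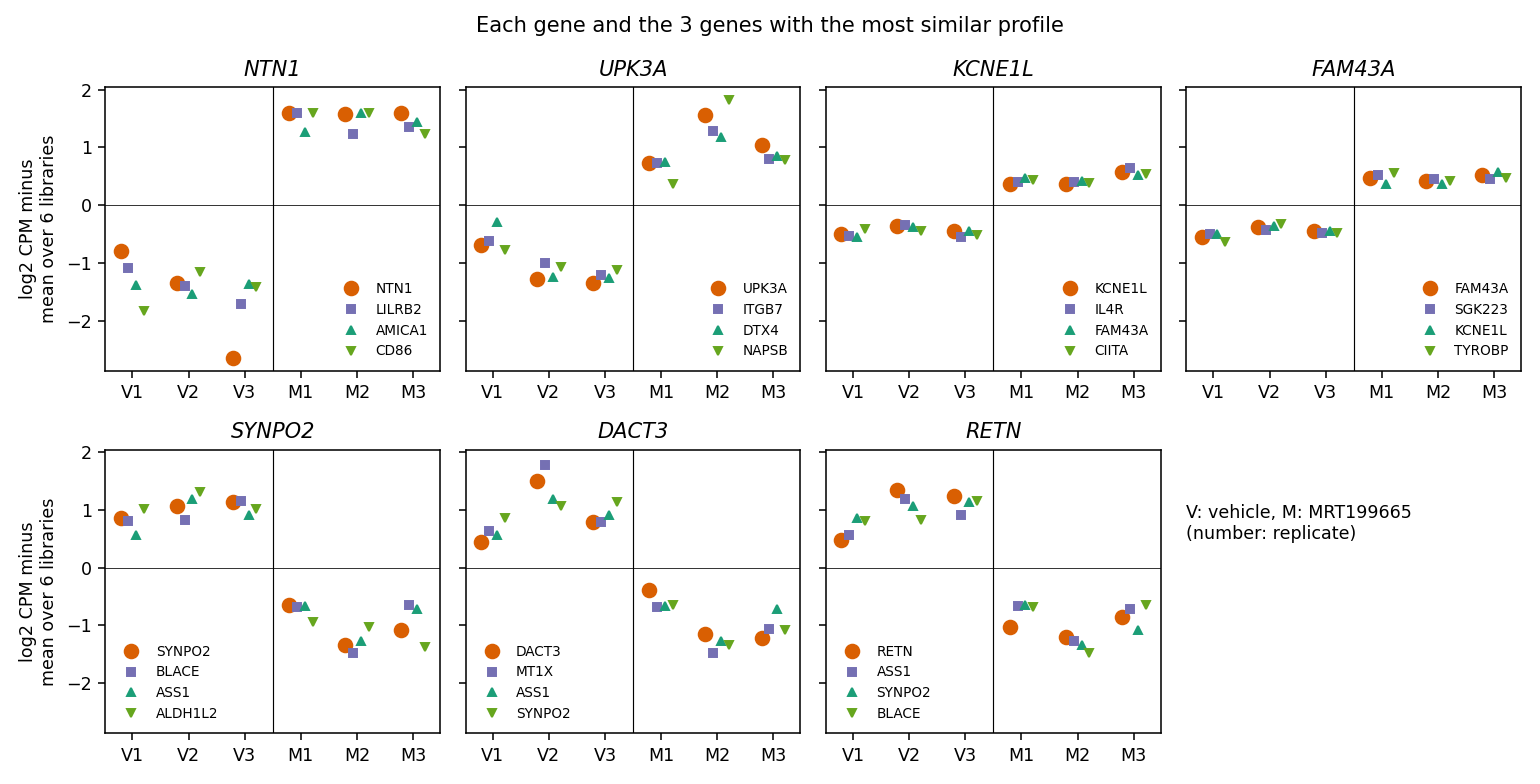
Log2 CPM minus the gene's mean over 6 libraries (3 vehicle, V, and 3 MRT199665, M) for each of the 7 genes (large orange circles) and the 3 genes with the most similar profile (small symbols). KCNE1L and FAM43A follow each other within 0.05 root mean square, and DACT3 and MT1X share their highest value in vehicle replicate 2.

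In GENCODE release 29, KCNE1L (as KCNE5) and FAM43A are both single-exon genes, which 5.3% of 19659 protein-coding genes are. They lie on chromosomes X and 3. NTN1 (chromosome 17) has 7 exons, and UPK3A (22), SYNPO2 (4), DACT3 (19) and RETN (19) have several. Coordinates on the build of the count table are not given here. KCNE1L overlaps the span of ACSL4, a fatty acid ligase gene on the same strand, so how reads there were assigned is uncertain. ACSL4 itself had 30.1 ± 8.97 against 26.6 ± 2.43 CPM (SD, n = 3 per group) and did not pass the test (log2 fold change 0.16 ± 0.20, SE, adjusted p = 0.778, edgeR). The antisense gene DACT3-AS1 had 1 count in all 6 libraries together. The antisense gene in NTN1 and the 2 loci within SYNPO2 could not be matched to the table by name.

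The 3 nearest protein-coding genes on each side of the members made up 42 genes, of which 40 were matched and 29 tested. The edgeR test called none of them in either direction, and neither did DESeq2 or limma-voom. An unadjusted p under 0.05 was found for 4 of the 29, against 1925 of all 13053 tested genes. The median log2 fold change of the neighbours was 0.13, against 0.01 over all tested genes. FAM118A beside UPK3A had the lowest p (log2 fold change 0.70 ± 0.18, SE, adjusted p = 0.12). PIK3R5, a subunit of phosphoinositide 3-kinase gamma beside NTN1, was next (0.34 ± 0.11, SE, adjusted p = 0.209).

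The families, receptors and partners of the members were read from 23 lists of 209 genes, 208 of them in the table and 93 tested, with markers of other cell types included. Over these genes the edgeR test called 2 higher and 0 lower. Among all tested genes 0.850% were called higher and 0.398% lower. For the lists, 23 of the 93 had an unadjusted p under 0.05, against 1925 of all 13053 tested genes. DESeq2, run without the low-count filter, called 4 higher and 1 lower of 172 list genes with a count. Over all 28230 genes with a count it called 197 and 150. The limma-voom test called 2 higher and 0 lower of the 93, against 107 and 50 of 13053. The median log2 fold change of the lists was 0.13, against 0.01 over all.

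For NTN1, the only other netrin gene tested was NTNG2, a membrane-anchored netrin (0.12 ± 0.12, SE). NTN3, NTN5 and the receptor gene DCC had 0 counts in all libraries. Of 12 receptor genes, 7 were tested and none was called by edgeR or limma-voom, 2 had an unadjusted p under 0.05, and DESeq2 called 1. That one was UNC5A, which encodes a receptor for repulsion by netrin. UNC5A had 0.336, 1.37 and 0.509 CPM in vehicle replicates 1, 2 and 3 and 3.70, 2.54 and 2.41 CPM in MRT199665 replicates 1, 2 and 3. Its groups did not overlap, and its log2 fold change was 1.95 ± 0.47 (SE, adjusted p = 0.0996 by edgeR and 0.029 by DESeq2). Without vehicle replicate 2, its highest vehicle library, edgeR gave 2.77 (adjusted p = 0.0334). Leaving out any other single library gave no call for UNC5A. NEO1, the neogenin gene, was at 0.42 ± 0.14 (SE, adjusted p = 0.209). Of 16 signalling genes 12 were tested and none was called by edgeR, DESeq2 or limma-voom, with 2 at an unadjusted p under 0.05, PAK1 (0.28 ± 0.11) and PITPNA (0.33 ± 0.14, both SE).

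For UPK3A, none of the other 5 uroplakin genes passed the low-count filter. UPK1B, whose protein pairs with uroplakin 3A in the bladder, had 4 counts over all 6 libraries, UPK3B had 2, UPK1A and UPK2 had 1 each and UPK3BL had 0. Their summed level was at most 0.305 CPM with vehicle and 0.0755 CPM with MRT199665. Of 15 urothelial and epithelial markers, the keratin genes KRT5, KRT7, KRT18 and KRT19 and SNX31 were at 0 in every library. Only CDH1, the E-cadherin gene, was tested, at 39.4 ± 14.2 against 48.6 ± 16.3 CPM (SD, n = 3 per group). The marker list summed to between 28.9 and 56.6 CPM with MRT199665 and between 32.1 and 65.3 CPM with vehicle.

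For KCNE1L, the subunit genes KCNE1 and KCNE2 had too few counts to be tested and KCNE4 had 0. KCNE3 was tested (0.34 ± 0.20, SE, adjusted p = 0.477). Of 17 pore genes 9 were tested and none was called by edgeR, DESeq2 or limma-voom. KCNMA1, the calcium-activated BK channel, had the lowest p (0.90 ± 0.32, SE, adjusted p = 0.247) and was the only one at an unadjusted p under 0.05. KCNQ1, the best known partner of KCNE subunits, averaged 3.96 ± 0.554 CPM in treated and 3.34 ± 0.304 CPM in control libraries (SD, n = 3 each), a log2 fold change of 0.22 ± 0.22 (SE). FAM43B, the one relative of FAM43A, had 0 counts.

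For SYNPO2, the related gene SYNPO was tested at 1.84 ± 0.603 against 0.556 ± 0.342 CPM (SD, n = 3 per group). Its log2 fold change of 1.67 ± 0.50 (SE, adjusted p = 0.165) had the opposite sign to that of SYNPO2. Of 15 partner genes 11 were tested and none was called by edgeR, DESeq2 or limma-voom, with 2 at an unadjusted p under 0.05, SQSTM1 (-0.37 ± 0.14) and PPP3CA (0.28 ± 0.11, both SE). The alpha-actinin gene ACTN1 was at -0.08 ± 0.17 (SE) and the filamin gene FLNA at 0.24 ± 0.13 (SE). All 11 muscle markers had a count somewhere, but only MYH11 was tested (0.34 ± 0.23, SE), and they summed to between 7.30 and 9.89 CPM with MRT199665 and between 6.11 and 7.72 CPM with vehicle.

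For DACT3, its relatives had almost no counts, with 0 for DACT1 and 1 for DACT2. Of 28 Wnt receptors and transducers 21 were tested and none was called by edgeR, DESeq2 or limma-voom, with a median log2 fold change of -0.02. TCF7L2, a Wnt transcription factor, was the only one at an unadjusted p under 0.05 (0.51 ± 0.17, SE, adjusted p = 0.219). The Dishevelled genes DVL1, DVL2 and DVL3, the partners of DACT proteins, were at -0.11 ± 0.24, -0.11 ± 0.14 and 0.03 ± 0.17 (SE). Of 12 Wnt target and feedback genes 3 were tested, and none was called by edgeR, DESeq2 or limma-voom. The common Wnt readout AXIN2 and the stem cell receptor LGR5 had 0 counts in all libraries. CCND1, the cyclin D1 gene, was at 1.06 ± 0.179 against 1.95 ± 0.452 CPM (SD, n = 3 per group, log2 fold change -0.91 ± 0.32, SE, adjusted p = 0.234) and was the only target at an unadjusted p under 0.05.

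For RETN, the receptor gene CAP1 was nearly level, at 172 ± 5.71 against 178 ± 6.85 CPM (SD, n = 3 per group, log2 fold change -0.05 ± 0.10, SE). TLR4, the endotoxin receptor that also binds resistin, was at 11.3, 18.1 and 13.6 CPM in MRT199665 replicates 1, 2 and 3 and at 9.06, 6.44 and 5.70 CPM in vehicle replicates 1, 2 and 3. Its log2 fold change of 1.00 ± 0.23 (SE) was not called by edgeR (adjusted p = 0.0977) or limma-voom but was by DESeq2 (adjusted p = 0.0214). Of 7 regulators reported for RETN, 5 were tested and none was called by edgeR, DESeq2 or limma-voom. CEBPB (-0.52 ± 0.16, adjusted p = 0.171) and CEBPD (-0.39 ± 0.14, adjusted p = 0.243, both SE) had an unadjusted p under 0.05, and CEBPA had 0 counts in all libraries.

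Resistin is stored in specific granules of neutrophils, and 4 of 11 listed genes of neutrophil granules were tested. Of these, 2 had a positive and 2 a negative log2 fold change, and the one called was CHI3L1, a chitinase-like secreted protein that was higher with the inhibitor. It had 1.17, 0.601 and 1.22 CPM in vehicle replicates 1, 2 and 3 and 3.32, 4.73 and 4.47 CPM in MRT199665 replicates 1, 2 and 3 (log2 fold change 2.04 ± 0.32, SE, adjusted p = 0.0227, edgeR). Leaving out 1 library ended that call in 4 cases, with an adjusted p of 0.0597 (MRT199665 replicate 2), 0.15 (MRT199665 replicate 3), 0.0592 (vehicle replicate 2) and 0.0985 (vehicle replicate 3). MMP9, ARG1 and MMP8 were at 0.41 ± 0.37, -0.54 ± 0.45 and -0.10 ± 0.43 (SE) and were not called. LTF and LCN2, which define the specific granules, had 1 count each.

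Of the 9 adipocyte markers and adipokines, FABP4, RBP4 and RARRES2 had 0 counts and ADIPOQ 1. The tested members were NAMPT, an enzyme of NAD synthesis, and LPL, the lipoprotein lipase gene. NAMPT was at -0.78 ± 0.19 on that scale (SE, adjusted p = 0.104 by edgeR and 0.0395 by DESeq2) and LPL at -0.35 ± 0.11 (SE, adjusted p = 0.176), so neither was called by edgeR or limma-voom. This list summed to between 90.7 and 101 CPM with MRT199665 and between 121 and 133 CPM with vehicle, mostly from LPL. Its sum moved with RETN, and its part in that result was not tested.

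**Figure D4:**
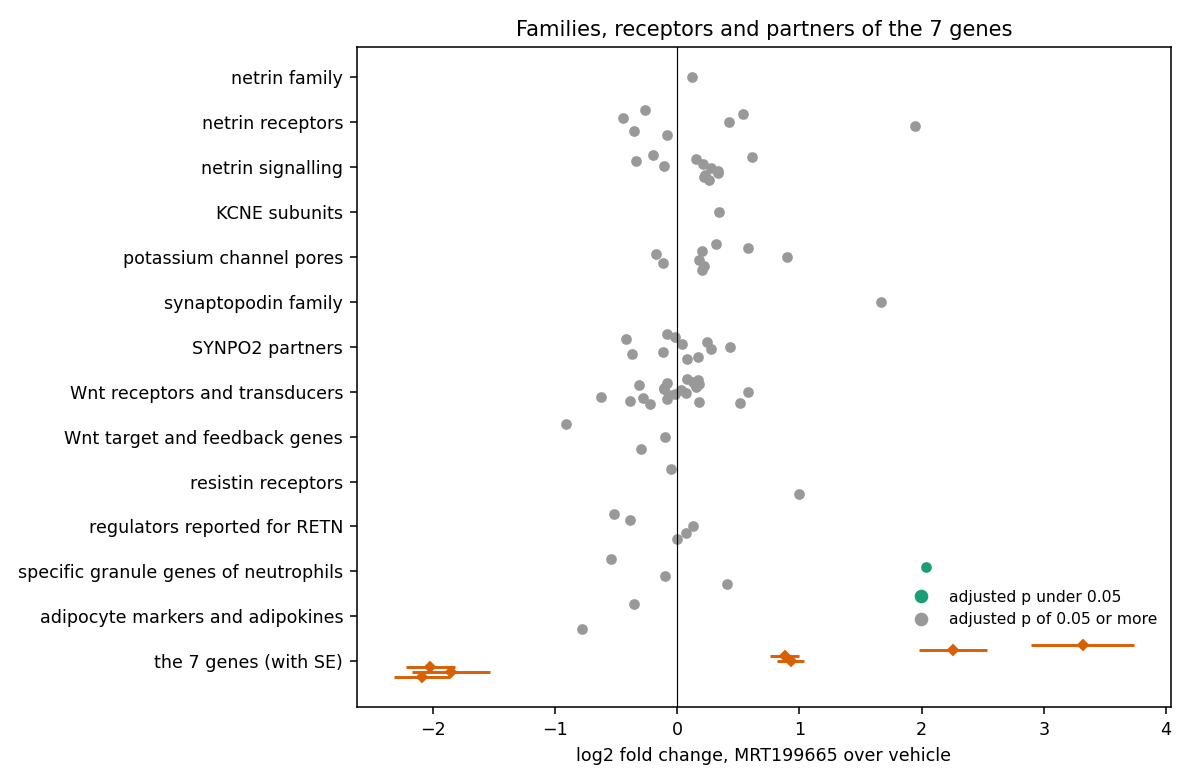
Log2 fold change (MRT199665 over vehicle) of each tested gene in 13 lists of families, receptors, partners and regulators (points, green at an adjusted p under 0.05) and of the 7 genes (orange diamonds with SE). CHI3L1 is the only green point, and most points lie between -0.6 and 0.6.

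The cells carried several markers of their label: PTPRC (405 ± 31.3 against 372 ± 17.2 CPM), SPI1 and CD33 were present, while CEBPA and CD34 had 0 counts. A count of 0 here is a lack of assigned reads, and absence of the transcript was not tested. The 9 identity genes summed to between 740 and 797 CPM with MRT199665 and between 656 and 664 CPM with vehicle. Of 7 tested, all had a positive log2 fold change, 5 had an unadjusted p under 0.05 and none was called by edgeR, DESeq2 or limma-voom. Of all 13053 tested genes, 6642 had a positive log2 fold change, 1925 had an unadjusted p under 0.05 and 1.25% were called by edgeR. The neuronal list (3.26 to 4.40 against 1.63 to 3.44 CPM, SNAP25, STMN2 and NEFL at 0) and the fibroblast and endothelial list (3.05 to 6.42 against 3.10 to 3.56 CPM, COL3A1 and KDR at 0) overlapped between the groups. T and NK cell markers did not overlap, at 31.8 to 33.3 CPM with MRT199665 and 16.1 to 19.3 CPM with vehicle. Their main gene, TRAC, rose 2.09-fold (adjusted p = 0.0167, edgeR), with CD2 at 0 and CD3E at 1 count. Leaving out MRT199665 replicate 1 (adjusted p of 0.0674), MRT199665 replicate 3 (0.118) or vehicle replicate 3 (0.105) ended its call. The sums for identity and T cell genes thus moved with the 4 higher members, and their part in those results was not tested. Such a shift was not particular to the identity, T cell and adipocyte lists. Sums for SYNPO2 partners (1497 to 1515 CPM with MRT199665, 1381 to 1440 with vehicle) did not overlap either. Nor did those for Wnt receptors and transducers (759 to 824 CPM with MRT199665, 828 to 871 with vehicle). Regulators reported for RETN were also apart, and lower like RETN (221 to 228 CPM with MRT199665, 238 to 252 with vehicle). Neutrophil granule genes were higher, unlike RETN (8.22 to 10.3 CPM with MRT199665, 5.79 to 6.72 with vehicle). The synaptopodin family was higher, unlike SYNPO2 (1.66 to 2.54 CPM with MRT199665, 0.252 to 0.916 with vehicle). In such bulk samples, fewer cells with a transcript and less transcript per cell cannot be told apart.

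Depth ranged from 5871097 counts in MRT199665 replicate 2 to 14308650 in MRT199665 replicate 3. The second principal component (26.25% of the variance) separated the groups. Vehicle replicates 1, 2 and 3 stood at -35.33, -0.9544 and -12.43 on it, and MRT199665 replicates 1, 2 and 3 at 26.43, 5.945 and 16.34. The larger first component (46.75% of the variance) did not separate the groups and had MRT199665 replicate 2 and vehicle replicate 2 at its ends. Without these libraries the members' log2 fold changes were 3.33 for NTN1, 1.92 for UPK3A, 0.95 for KCNE1L, 0.99 for FAM43A, -1.88 for SYNPO2, -1.40 for DACT3 and -1.85 for RETN. DACT3, whose highest vehicle value came from 1 of these libraries, moved the most among the lower genes.

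**Figure D5:**
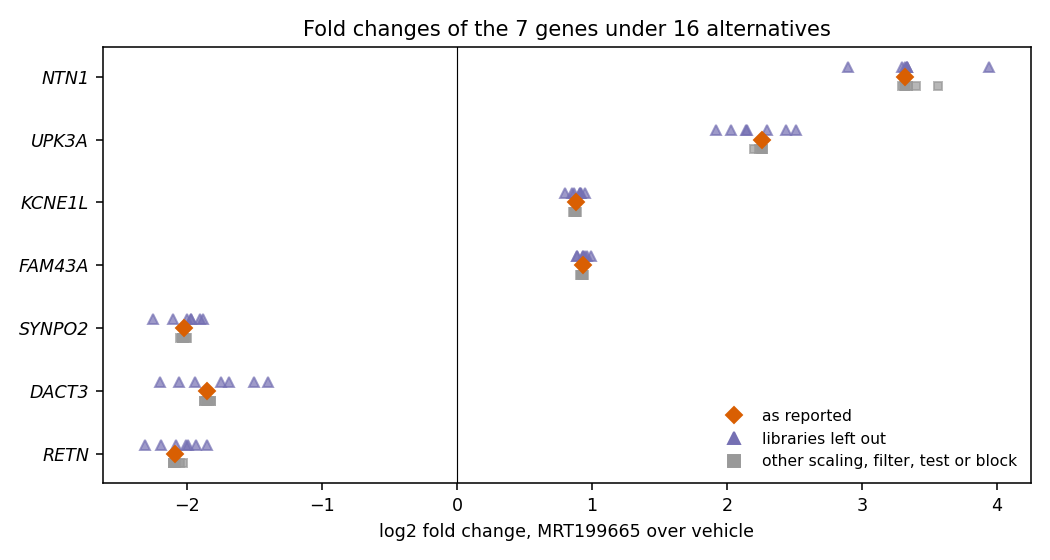
Log2 fold change of the 7 genes as reported (diamonds), with libraries left out (triangles) and under other scalings, filters, tests or the replicate block (squares), 16 alternatives in all. Each gene keeps its sign throughout, which follows from the choice of the genes, as their groups did not overlap. NTN1 ranges from 2.90 to 3.94.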

How the data were processed

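The values used were raw counts for each gene symbol, deposited by the authors without normalization, which the table's whole numbers and unequal totals bear out. The submitters' processing notes name STAR 2.4, HTSeq 0.6.1, DESeq2 and build hg19. Annotation, strand and read filters are not given there. Groups, replicate numbers and the Lexogen 3′ kit come from the labels.

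The whole table was fitted with edgeR 4.0.16 (R 4.3.3; TMM, quasi-likelihood, group only, two-sided) after filterByExpr at a count of 10 and a total of 15, with p adjusted over 13053 genes. SE is the log2 fold change over the square root of F, and log2 CPM had a prior count of 2. Alternatives were other scalings and filters, DESeq2 1.42.0 on the unfiltered table, limma-voom 3.58.1, a replicate block and left-out libraries. Members, lists and alternatives were chosen with earlier results of these data known.

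Named genes are the members, called list genes (or up to 2 with the lowest p), 2 neighbours with the lowest p and the 3 most similar profiles per member. UNC5A, TLR4 and NAMPT per library, genes at or near 0 counts and well-known partners were named after their values were seen. GENCODE release 29 and RefSeq, on a later build, gave names, gene order, exons and promoters. In simulated counts (13053 genes, this design) 10.4% of 1.5-fold, 60.9% of 2-fold and 98.4% of 4-fold changes were recovered beside 3 false calls. The simulation drew each library independently, with variation set by abundance alone. It lacked the differences between libraries seen on the first principal component, so these rates may not hold for the real libraries. Chi-square per degree of freedom between libraries of a group was at least 8.59, so no library was taken as a copy.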

Additional observations from a re-analysis of the deposited data

How the results depend on the processing

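The log2 fold changes of the 7 genes stayed within the within-group SD of the reported value in all 16 alternatives. They also kept their sign, which follows from the choice of the genes, as their groups did not overlap. They ranged from 2.90 to 3.94 for NTN1, 1.92 to 2.51 for UPK3A, 0.80 to 0.95 for KCNE1L, 0.89 to 0.99 for FAM43A, -2.25 to -1.88 for SYNPO2, -2.20 to -1.40 for DACT3 and -2.31 to -1.85 for RETN. The counts over all genes (111 higher, 52 lower) moved more: 373 and 271 without a low-count filter, 197 and 150 by DESeq2, and between 29 and 78 higher and between 20 and 55 lower with 1 library left out. The lists' count of 2 higher became 8 without a filter (with 1 lower), 4 by DESeq2 (with 1 lower) and between 0 and 2 with 1 library left out. Same-numbered libraries did not deviate together (correlations of -0.55, -0.47 and 0.02 across genes), and no library correlated best with its own number. These values gave no sign that the numbers pair the libraries, but with 3 libraries per group they cannot exclude it. With the replicate block 7 genes were called higher and 5 lower, and 0 in the lists. No neighbouring gene was called under any of the 16 alternatives. In the 250 bases before the start alone, 3 genes held a GC box in place of 4, since the match in SYNPO2 lies after the start, and the number of genes with each of the other 9 motifs was the same. The cause of these shifts was not tested. At 0.213 to 0.507 CPM for 3 counts, genes near the level of NTN1 with vehicle give imprecise folds.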
